A study of Mus musculus with 117 samples.

Results

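The 9 complement genes Hc, C3, C4b, C6, C8a, C8b, C9, Cfb and Mbl2 were examined for their chromatin states in hepatocytes of 9 inbred mouse strains. The genes were taken as a named list, and each was followed over its annotated span on GRCm38 (mm10) with 2 kb added at both ends, which gave 2028 of the 12313718 autosomal bins of 200 bp and 9 of the 20665 autosomal protein-coding genes tested. Complement is a cascade of plasma proteins that marks microbes and damaged cells, and the liver makes most of its components. Mbl2 encodes a mannose-binding lectin that starts the lectin pathway, C4b encodes component 4, Cfb encodes factor B of the alternative pathway, and C3 encodes the component at which the pathways meet. Hc encodes component 5 (C5), and C6, C8a, C8b and C9 encode parts of the pore that the cascade builds into a target membrane.

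The mice came from the laboratory strains C57BL/6J, 129S1/SvImJ, DBA/2J, A/J, NZO/HlLtJ and NOD/ShiLtJ and from the wild-derived strains PWK/PhJ, WSB/EiJ and CAST/EiJ, all females of 12 weeks with no treatment in the labels. Hepatocytes of each strain had been profiled by ChIP-seq for H3K4me1, H3K4me3, H3K27ac and H3K27me3 in 3 mice, with 1 input library per strain. The authors deposited 1 segmentation per strain, not per mouse, which names each 200-bp bin with 1 of 14 states, so a strain is 1 value, the spread between mice of a strain cannot be given, and the sequencing depth is unknown. State numbers are used only as names, since no source used here says which marks a state holds. As background that is not in the labels, A/J, DBA/2J and NOD/ShiLtJ are known to carry a null allele of Hc, a small frameshift deletion in its coding sequence. The allele of NZO/HlLtJ is not known here.

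States 1 to 4 were used as the measure of these genes, because earlier results on the same files showed them at the ends of genes that hepatocytes express. They covered 7.94% ± 0.824 of the autosomes (SD, n = 9 strains), and state 14, the most widespread, covered 76.6% ± 1.48. Hepatocyte markers such as Alb and Apoa1 had 63.9% to 83.1% of their pooled bins in states 1 to 4, depending on the strain. Marker lists of other liver cells had less: 10.5% to 28.1% for endothelial cells, 0.651% to 1.12% for Kupffer cells and leukocytes, and 0.296% to 2.48% for stellate and bile duct cells. The part of endothelial or other cells in the results below was not tested.

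The promoter sequences are shown first, because the state at the start site differed between the members. A start site was available for 7 of the 9 genes, all except C4b and Cfb. Hc, C3 and Mbl2 had state 3 in the start bin in 9 of 9 strains, whereas C6 had state 1 in 5 strains and state 8 in 4 strains. The 250 bases before these 4 starts are given 5′ to 3′ on the gene's strand, from the RefSeq promoter table of build GRCm38.p6, which is the C57BL/6J reference and not the sequence of the other strains. Capitals mark every CG pair, the letters TTAATNATTAA of an HNF1-type motif and the letters TTGCNNAA of a C/EBP-type motif, both liver transcription factor families.
Hc, chr2:35061413-35061662, minus strand: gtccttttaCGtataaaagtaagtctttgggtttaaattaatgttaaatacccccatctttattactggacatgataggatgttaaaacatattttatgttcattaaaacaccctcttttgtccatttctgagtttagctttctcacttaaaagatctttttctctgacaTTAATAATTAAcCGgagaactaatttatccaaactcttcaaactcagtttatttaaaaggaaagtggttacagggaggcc
C3, chr17:57228137-57228386, minus strand: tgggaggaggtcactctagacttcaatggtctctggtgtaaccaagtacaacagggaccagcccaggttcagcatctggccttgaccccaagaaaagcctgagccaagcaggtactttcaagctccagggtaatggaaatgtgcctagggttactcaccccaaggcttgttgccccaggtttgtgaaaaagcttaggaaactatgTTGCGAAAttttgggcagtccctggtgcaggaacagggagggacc
Mbl2, chr19:30232678-30232927, plus strand: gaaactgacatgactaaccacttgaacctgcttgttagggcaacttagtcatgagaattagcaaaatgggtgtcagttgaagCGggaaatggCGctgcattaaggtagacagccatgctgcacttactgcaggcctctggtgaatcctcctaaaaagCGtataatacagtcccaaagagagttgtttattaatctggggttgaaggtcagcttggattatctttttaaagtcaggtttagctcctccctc
C6, chr15:4726960-4727209, plus strand: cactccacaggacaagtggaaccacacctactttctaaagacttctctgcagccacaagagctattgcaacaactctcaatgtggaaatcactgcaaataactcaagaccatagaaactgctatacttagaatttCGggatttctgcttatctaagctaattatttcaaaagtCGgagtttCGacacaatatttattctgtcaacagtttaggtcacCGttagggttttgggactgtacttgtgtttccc

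These upstream sequences hold few CG pairs. There were 2 in Hc, 1 in C3, 3 in Mbl2 and 4 in C6, and C8a had 2, C8b had 4 and C9 had 0. Over the 16457 autosomal protein-coding genes with a start site in the table, the median was 10. Genes with state 3 at the start in every strain had a median of 19, and genes with state 1 there in every strain had a median of 6. Of the 5440 genes with at most 4 CG pairs, 2.57% had state 3 at the start in all 9 strains, against 48.7% of the genes with more. Hc, C3 and Mbl2, 3 of the 7 members with a start site, belonged to these 2.57%. The limit of 4 CG pairs was the highest count among the 7 members. Over all 16457 genes, whatever their count, 33.5% had state 3 at the start in all 9 strains. The count of CG pairs and the motifs were chosen after the sequences had been seen, so these values are a description.

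The HNF1-type letters were read off the Hc promoter itself, where the stretch TTAATAATTAA begins 80 bases before the start, with any base allowed in the middle. Both motifs were searched on both strands. The HNF1-type letters were present in 0.116% of the 32851 promoters of the same length in the table, 38 in all, and in none of the other 6 members with a promoter. The C/EBP-type letters occurred once in C3, as TTGCGAAA from 45 bases before the start, and once in C9, as TTGCATAA from 132 bases before it. They were present in 9.56% of all promoters. No member held both motifs. A match describes letters only, and no factor binding was measured.

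The question behind the comparison of the strains was how far chromatin states differ between genetic backgrounds. In 8 of the 9 genes the share of bins in states 1 to 4 was higher than on the autosomes of the same strain, and in C6 it was lower. The within-strain differences of each gene were tested by flipping their signs in all possible ways (exact permutation test, two-sided, n = 9), with Benjamini-Hochberg adjustment over all 20665 genes. Of all genes, 45% were called higher and 45.4% were called lower by this rule, so a call by itself sets a gene little apart. The median share of the 9 genes was 75.1%, and that over all genes was 8.13%. The difference was positive in 9 of 9 strains for each of the 8 genes, with an adjusted p of 0.00477 from the exact permutation test, whose smallest unadjusted p is 0.0039. Against the bins of all protein-coding genes in place of the autosomes, the difference of C9 was 2.49 percentage points and no longer called (adjusted p = 0.0855, exact permutation test).

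**Figure D1:**
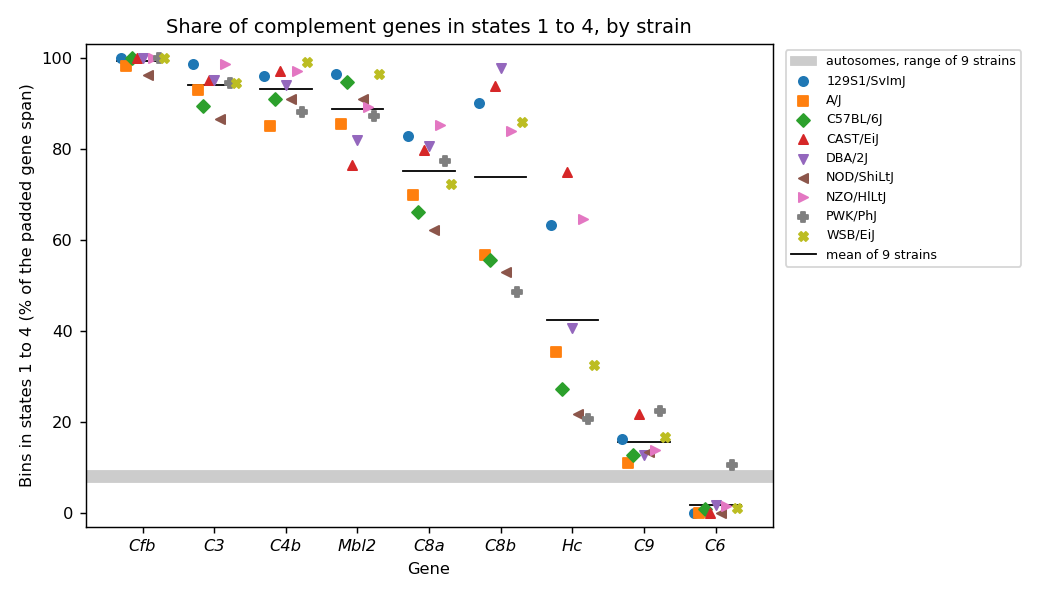
Percentage of 200-bp bins in states 1 to 4 (vertical axis) for each complement gene (horizontal axis, ordered by the mean), with 1 point per strain, a line at the mean of the 9 strains and a grey band for the range of the autosomes. Cfb, C3 and C4b sit at or above 85.0% in every strain, Hc and C8b are spread widely, and C6 lies below the band in every strain except PWK/PhJ.

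Cfb, C3, C4b and Mbl2, which act in the initiating and central steps, had medians of 89.1% or more. These genes also had the shortest spans, of 52 to 142 bins, against 212 to 447 bins in the other members. Place in the cascade and span length therefore cannot be told apart here, and the part of length was not tested. Cfb, at chr17:34856374-34862514, had 96.2% to 100% of its bins in states 1 to 4, with a median of 100% and a mean of 99.4% ± 1.36 (SD, n = 9). C3, at chr17:57203967-57228136, ranged from 86.6% to 98.6%, with a median of 94.4%. C4b, at chr17:34728139-34743902, ranged from 85.0% to 99.0%, with a median of 94.0%. C4b has a close copy, C4a, at chr17:34809092-34823460, and how the authors placed reads that fit both is not given in the sources used here, so its values are uncertain. Mbl2, at chr19:30232906-30239687, ranged from 76.4% in CAST/EiJ to 96.4% in 129S1/SvImJ and WSB/EiJ, with a median of 89.1%. In these 4 genes no strain had a single bin in state 14.

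Hc and the 4 pore genes among the members had medians from 0.985% to 84.0%. C8a, at chr4:104815679-104876487, encodes the alpha chain of component 8 and ranged from 62.2% in NOD/ShiLtJ to 85.2% in NZO/HlLtJ, with a median of 77.2%. C8b, at chr4:104766317-104804548, encodes the beta chain and ranged from 48.6% in PWK/PhJ to 97.6% in DBA/2J, with a median of 84.0%. Hc, at chr2:34983329-35068506, ranged from 20.6% in PWK/PhJ to 74.9% in CAST/EiJ, with a median of 35.3% and a mean of 42.3% ± 20.2. C9, at chr15:6445346-6498825, encodes the unit that forms most of the pore and ranged from 11.1% in A/J to 22.5% in PWK/PhJ, with a median of 13.8%. C6, at chr15:4727067-4804045, had a median of 0.985%, and 4 strains had none. The lowest strain of Hc stood above the highest autosomal value of 9.29%, so Hc lay above the background in all 9 strains despite its spread.

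A second measure, the share of bins outside state 14, was higher than on the autosomes in 7 of the 9 genes by the same exact permutation test, with an adjusted p of 0.00581 for each. Of all genes, 56.9% were called higher by this rule. The median share was 81.2% in the 9 genes and 36.03% over all genes. C9 had 19.3% ± 5.33 outside state 14 and was above the autosomes in 2 of 9 strains (exact permutation test, adjusted p = 0.0781). C6 had 16.4% ± 12.0 and was also above them in 2 of 9 strains (adjusted p = 0.108, exact permutation test). Single strains decided both results: without PWK/PhJ the difference of C9 was -5.52 percentage points (adjusted p = 0.0198, exact permutation test), and without NOD/ShiLtJ that of C6 was -9.82 (adjusted p = 0.0207, exact permutation test). With states 13 and 14 merged, C9 was higher than the autosomes by 6.97 percentage points (adjusted p = 0.00452, exact permutation test).

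Hc varied little between strains within 2 kb of its start and more farther out. Around its start site, which lies at chr2:35061412 on the minus strand, a stretch of state 3 of 600 to 1800 bp was present in all 9 strains, including the 3 strains known to carry the null allele. Its lower coordinate was 35060401 in 7 of the strains and its higher coordinate 35061600 in 6. Within 2 kb of the start, states 1 to 4 covered 95.0% of the bins in the lowest strain and a median of 100%. There, 11.4% of the bins differed between a pair of strains on average, against 38.9% of the 427 bins farther out. State 1 was similarly stable, at 9.17% to 15.9% of the span with a median of 11.2%.

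State 4 carried most of the spread of Hc. It covered 54.6% of the span in CAST/EiJ, 41.8% in NZO/HlLtJ and 41.2% in 129S1/SvImJ. DBA/2J had 24.2%, A/J 17.9% and WSB/EiJ 14.5%. C57BL/6J had 7.83%, PWK/PhJ 6.26% and NOD/ShiLtJ 5.59%. On all autosomes together the share of state 4 ran from 1.89% in NOD/ShiLtJ to 3.49% in CAST/EiJ. The lowest and the highest strain were the same in Hc and on the autosomes. State 14 ranged from 21.3% in CAST/EiJ to 69.8% in PWK/PhJ, and states 1, 2, 3, 6, 8 and 9 held the rest.

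**Figure D2:**
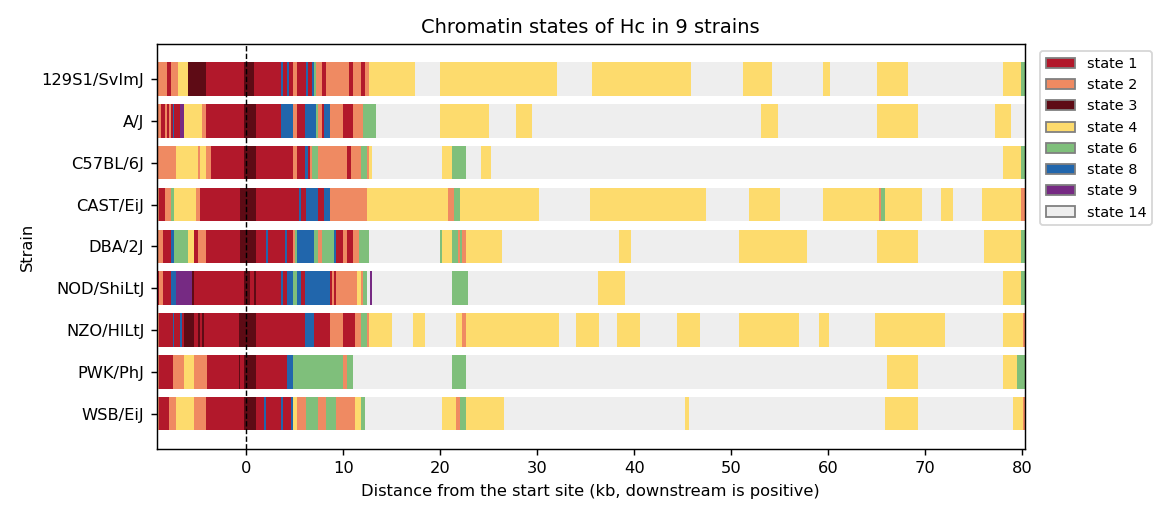
States of the bins of Hc in each strain (rows) by distance from the start site in kb (horizontal axis), 1 colour per state, with a dashed line at the start. State 3 lies on the start in 9 of 9 strains, and the long stretches of state 4 beyond 12 kb in CAST/EiJ, NZO/HlLtJ and 129S1/SvImJ are short or missing in C57BL/6J, NOD/ShiLtJ and PWK/PhJ.

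Windows of 10 kb placed the difference along the gene. In the first window downstream of the start, states 1 to 4 covered 42.0% to 90.0% of the bins. Between 20 and 30 kb the range was 0% to 100%, with NOD/ShiLtJ and PWK/PhJ at 0% and 129S1/SvImJ at 100%, and strain pairs differed in 54.2% of the bins, the highest value of the 9 windows. Pairs also differed in 40.0% of the bins in the window upstream of the start and in 40.9% in the first window downstream. The windows from 30 to 80 kb had lower values, from 22.5% to 35.7%. Between 40 and 50 kb, 5 strains had no bin in states 1 to 4, and CAST/EiJ had 74.0%. At the far end, between 70 and 80 kb, all strains had some, from 10% in WSB/EiJ to 54% in CAST/EiJ. The longest stretch of state 4 was 12000 bp in CAST/EiJ, at chr2:35014001-35026000, and also 12000 bp in 129S1/SvImJ, at chr2:35029401-35041400. It was 2200 bp in C57BL/6J, where it lay upstream of the start site.

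The annotated span of Hc runs past this start site, and the nearest other start in the table, that of the lncRNA gene Gm39794 on the opposite strand, lies 2.10 kb from it. The stretch of bins outside states 13 and 14 that holds the start reached 11011 to 30211 bp into the gene, with the longest reach in CAST/EiJ and a median of 13011 bp. On the other side it extended 19188 to 30388 bp, towards or into the neighbouring gene AI182371, which begins at 35081893. What share of these states belongs to the neighbours was not tested.

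The strains known to carry the null allele of Hc did not form a group in states 1 to 4. A/J had 35.3%, DBA/2J 40.7% and NOD/ShiLtJ 21.7%, and the other 6 strains ran from 20.6% to 74.9%. The means were 32.6% and 47.2%, a difference of -14.6 percentage points with the ranges overlapping. The difference was also negative in every other member, from -1.81 in C6 to -7.31 in C8b. On the autosomes the means were 7.19% and 8.32%, so a lower share in these 3 strains was not particular to Hc. The state 3 segment at the start measured 1200 bp in A/J, 1600 bp in DBA/2J and 600 bp in NOD/ShiLtJ. Pairs of these 3 strains differed in 25.95% to 35.6% of the bins of Hc, with a median of 29.8%. Pairs of the other strains differed in 17.2% to 61.5%, with a median of 42.1%, and mixed pairs in 18.3% to 58.2%, with a median of 34.6%. No test was made on these groups, because the labels do not give the allele.

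At Hc, state 8 was the measure in which the 3 strains stood apart, which was noticed after the values had been seen. It covered 4.92% of Hc in NOD/ShiLtJ, 3.58% in A/J and 3.13% in DBA/2J. The other strains ran from 0.447% in C57BL/6J to 2.24% in CAST/EiJ. A share of state 8 higher in these 3 strains than in every other was found in 5.36% of all genes, and in 1 of the 9 complement genes, Hc. On the autosomes the mean share of state 8 was also higher in these strains, at 0.892% against 0.583%, but the ranges overlapped. NOD/ShiLtJ had 1.02%, A/J 0.926% and DBA/2J 0.726%, and the others ran from 0.438% to 0.784%, the latter in NZO/HlLtJ. The part of this genome-wide difference in the result at Hc was not tested. In C4b, state 4 covered 0% in each of the same 3 strains and 2% to 10% of the 100 bins in the others. On the autosomes the mean share of state 4 was also lower in the 3 strains, at 2.22% against 2.98%, with overlapping ranges. How many of all genes show that separation in state 4 was not counted, so it does not set C4b apart.

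Other genes followed the order of the strains at Hc. Among 6890 autosomal protein-coding genes with at least 20 bins and an SD of at least 5 percentage points, the 5 whose shares in states 1 to 4 were most like those of Hc over the 9 strains were Ppfia1 (Pearson r = 0.978), Phykpl (r = 0.972), Rab4a (r = 0.970), Golga7 (r = 0.960) and Ubr4 (r = 0.960). None of them lies on chromosome 2. C8b ranked 537th with r = 0.755 and C8a 619th with r = 0.740, while Mbl2 had r = -0.343. These values are descriptions over 9 strains that share, in every gene, the same segmentation and its genome-wide share of each state.

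C8a and C8b are neighbours that point towards each other, with 11.1 kb between them. State 4 had the highest mean share over the strains in both, but it was the most frequent state in 5 of the 9 strains in each gene. In the other 4, A/J, C57BL/6J, NOD/ShiLtJ and PWK/PhJ, state 14 led in C8b, and in C8a state 2 led except in NOD/ShiLtJ, where state 14 did. In C8b, state 4 covered 55.2% in DBA/2J, 52.4% in WSB/EiJ, 50.9% in 129S1/SvImJ, 46.7% in CAST/EiJ and 39.2% in NZO/HlLtJ. The remaining strains were lower, with 22.6% in C57BL/6J, 21.7% in PWK/PhJ, 20.3% in A/J and 19.3% in NOD/ShiLtJ. C8b thus had 5 strains with at least 39.2% of state 4 and 4 strains with at most 22.6%, and none between. The 4 lower strains held 34.9% to 47.2% of state 14 and the 5 higher ones 0% to 15.1%.

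**Figure D3:**
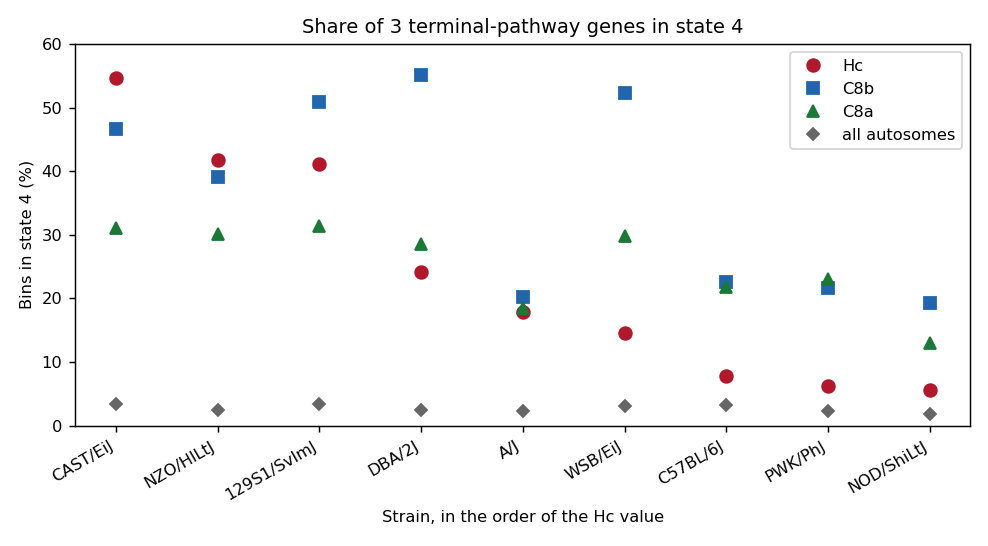
Percentage of bins in state 4 (vertical axis) in Hc, C8b, C8a and all autosomes for each strain (horizontal axis, ordered by the value of Hc). Hc falls from 54.6% in CAST/EiJ to 5.59% in NOD/ShiLtJ, C8b is high also in DBA/2J and WSB/EiJ, and the autosomes stay between 1.89% and 3.49%.

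C8b had the largest disagreement between strains of the 9 genes. On average 42.7% of its bins differed between a pair of strains, which placed it at the 94.9th percentile of all autosomal protein-coding genes. DBA/2J and PWK/PhJ were least alike, differing in 71.2% of the bins, and CAST/EiJ and DBA/2J were most alike, differing in 14.2%. In DBA/2J the stretch outside states 13 and 14 that held the C8b start was 85400 bp long, from 104761401 to 104846800, and ran through all of C8b and into C8a. In NOD/ShiLtJ and A/J it measured 9600 bp and 9800 bp. The window from 20 to 30 kb downstream of the start held the greatest range, with states 1 to 4 at 0% in PWK/PhJ, 6.00% in C57BL/6J and 10% in NOD/ShiLtJ, and at 100% in DBA/2J and WSB/EiJ.

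C8a varied less. State 4 ran from 12.9% in NOD/ShiLtJ to 31.4% in 129S1/SvImJ, with a median of 28.6%, and 26.5% of its bins differed between a pair of strains. More than 30 kb from its start, states 1 to 4 covered at least 94.0% of each window in every strain. Between 10 and 20 kb the range was 0% in NOD/ShiLtJ to 86.0% in NZO/HlLtJ. The start of C8a was in state 1 in 9 of 9 strains, and that of C8b was in state 1 in 6 strains and in state 3 in A/J, CAST/EiJ and DBA/2J, as a single bin of 200 bp each.

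C9 was marked at its start and little elsewhere. State 1 covered 9.34% to 12.8% of its span in the 9 strains, with a median of 12.1%, and state 14 covered 70.2% to 85.1%. The marked stretch reached 5654 to 7854 bp into the gene. In the window from 10 to 20 kb, states 1 to 4 were present only in CAST/EiJ, at 22.0%, and in PWK/PhJ, at 16.0%, and these 2 strains had the highest shares over the whole gene. C9 was among the least variable members over its whole span, since 69.9% of its bins had the same state in all strains, and 11.7% differed in an average pair. Of these 202 constant bins, only 23 were outside state 14. Over the 110 bins outside state 14 in at least 1 strain, an average pair differed in 30.8%. The median of the 9 genes over such bins was 32.4%.

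C6 was the exception among the members. Its share in states 1 to 4 was lower than that of the autosomes, with a difference of -6.17 percentage points ± 3.67 (SD, n = 9, exact permutation test, adjusted p = 0.00915). The share was 0% in 129S1/SvImJ, A/J, CAST/EiJ and NOD/ShiLtJ, 0.985% in C57BL/6J, 1.23% in WSB/EiJ, 1.48% in NZO/HlLtJ and 1.72% in DBA/2J. PWK/PhJ stood apart with 10.6%. In that strain a stretch outside states 13 and 14 of 10600 bp, from 4724601 to 4735200, covered the start and reached 7990 bp into the gene, against 790 to 2990 bp in the other strains.

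**Figure D4:**
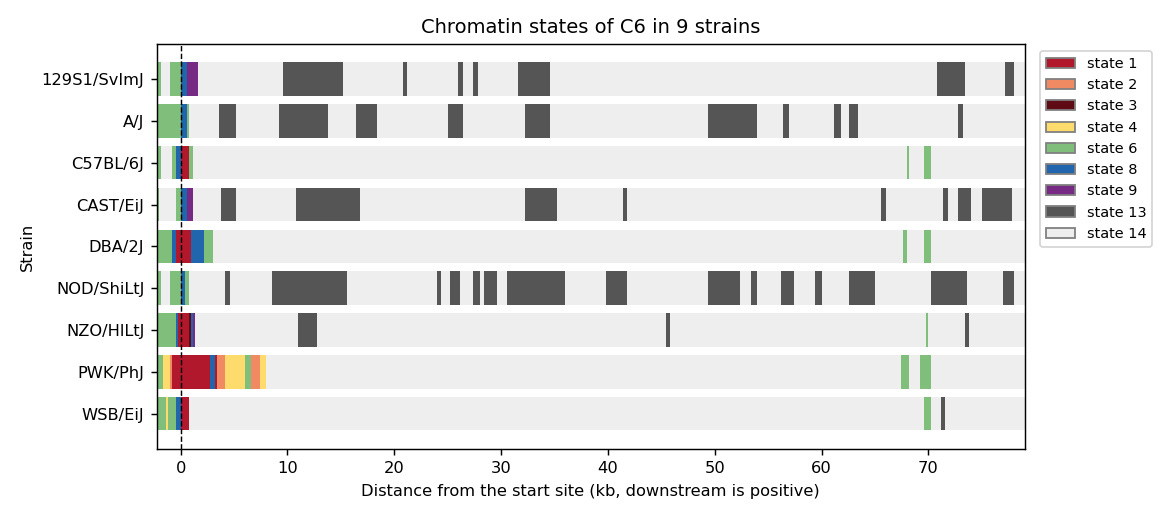
States of the bins of C6 in each strain (rows) by distance from the start site in kb (horizontal axis), 1 colour per state, with a dashed line at the start. State 1 is seen at the start in 5 strains, longest in PWK/PhJ, and stretches of state 13 fill 16.3% to 37.2% of the span in the other 4 strains.

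The strains also split by state 13 in C6. This state covered 37.2% of the span in NOD/ShiLtJ, 23.4% in A/J, 19.2% in CAST/EiJ and 16.3% in 129S1/SvImJ. It covered 3.20% in NZO/HlLtJ, 0.4926% in WSB/EiJ and 0% in C57BL/6J, DBA/2J and PWK/PhJ. The 4 strains with most of state 13 were the 4 with state 8 rather than state 1 at the start, a match noticed after the values had been seen and not tested. Of 20 bins around the start, state 1 held 15 in PWK/PhJ, 7 in DBA/2J, 5 in NZO/HlLtJ and 4 each in C57BL/6J and WSB/EiJ. In the 20 bins within 2 kb of the start, a slightly shifted set, strain pairs differed in 61.3% on average. The value for the bins farther away was 21.1%. Mbl2 and C9 had the same order, with 33.2% against 18.2% and 15.8% against 11.4%, while Hc, C3, C8a and C8b differed less near the start than farther away. On the autosomes state 13 covered 9.40% to 13.1%.

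C3 was in states 1 to 4 in every strain, but the states within this set changed. State 1 covered 83.1% of its span in NZO/HlLtJ, 70.4% in 129S1/SvImJ, 62.0% in DBA/2J, 57.7% in WSB/EiJ and 54.2% in NOD/ShiLtJ. C57BL/6J had 45.1%, A/J 35.9%, PWK/PhJ 33.1% and CAST/EiJ 31.7%. State 2 ranged from 9.15% in NZO/HlLtJ to 58.5% in PWK/PhJ. On average 36.3% of the bins of C3 differed between a pair of strains, which was at the 88.0th percentile of all genes although its summed share in states 1 to 4 varied little. The state 3 segment at the start measured 600 bp in 6 strains, 800 bp in CAST/EiJ, 1600 bp in A/J and 1800 bp in NZO/HlLtJ.

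State 1 was the most frequent state of Cfb and Mbl2 in every strain, and of C4b in every strain except CAST/EiJ and PWK/PhJ, where state 2 was. In C4b, state 1 ranged from 28.0% in PWK/PhJ to 73.0% in NZO/HlLtJ, with a median of 51.0%, and state 2 from 16.0% to 46.0%. NZO/HlLtJ was the strain with most of state 1 in both C3 and C4b, and its share of state 1 on the autosomes, 2.81%, was second to the 2.82% of 129S1/SvImJ. In Cfb, state 1 ranged from 80.8% to 88.5%, and a state 3 segment of 600 to 1400 bp lay near the end with the higher coordinates in all strains. Cfb is separated by 87 bp from C2, the next complement gene, which begins at 34862602, so a state at this end cannot be assigned to 1 of the 2 genes. In Mbl2, state 1 ranged from 58.2% in PWK/PhJ to 83.6% in NOD/ShiLtJ, and state 3 lay on the start in all strains with 800 to 1600 bp.

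Disagreement between strains covered a wide range among the 9 genes. The share of bins that differed in an average pair was 10.1% in Cfb, 11.7% in C9, 23.1% in C6, 23.6% in Mbl2, 26.5% in C8a, 32.4% in C4b, 36.3% in C3, 37.6% in Hc and 42.7% in C8b. The median of 26.5% compared with 20.1% over all genes. It was not particular to these genes, since the median was 26.7% in the other complement genes found in plasma and 27.1% in the hepatocyte markers. The remaining gene lists ran from 18.1% in stellate and bile duct markers to 30.5% in Kupffer cell and leukocyte markers. Hc was at the 89.8th percentile of all genes and Cfb at the 21.1st. PWK/PhJ was in the least alike pair of 8 of the 9 genes, all except C8a, where that pair was C57BL/6J with NZO/HlLtJ. It was also in the most alike pair of Hc, with WSB/EiJ (17.2%), and of C3, with CAST/EiJ (18.3%). How often PWK/PhJ is in the least alike pair over all genes was not counted, so the count does not set these genes apart.

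**Figure D5:**
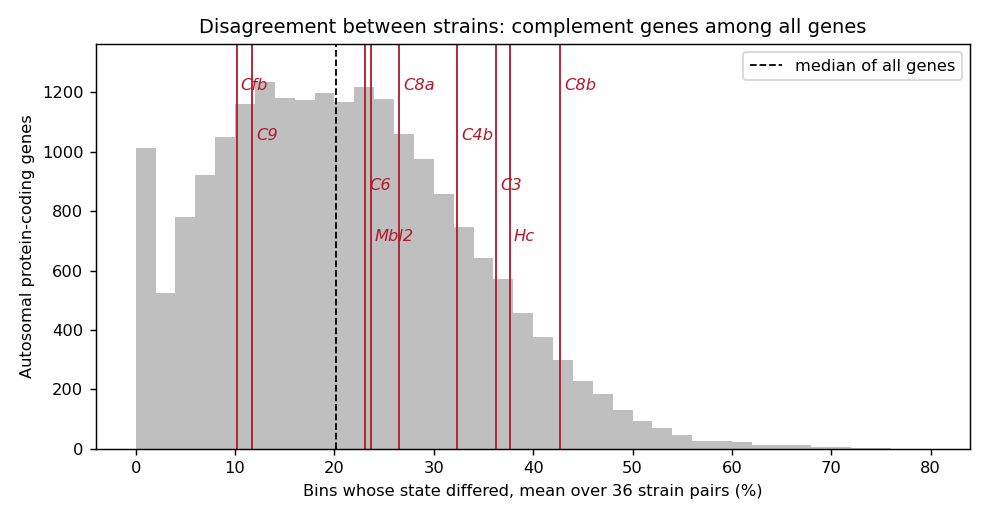
Number of autosomal protein-coding genes (vertical axis) by the mean percentage of bins in unlike states over the 36 strain pairs (horizontal axis), with red lines at the 9 complement genes and a dashed line at the median of all genes. C8b, Hc and C3 lie in the right part of the distribution, and Cfb and C9 lie left of the median.

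Other complement genes were read in the same way. Of 20 tested genes of complement proteins found in plasma, a list drawn up for products of the liver, 17 were called higher than the autosomes in states 1 to 4 and 3 were called lower by the exact permutation test. Cpn2, which encodes a subunit of carboxypeptidase N, had 98.7% ± 1.72 and Clu, which encodes clusterin, had 98.6% ± 1.398 (SD, n = 9), while Colec10 and Colec11, which encode collectins, had 0% in every strain. C7, whose product joins the pore after C6, had 0% in every strain too and was the third gene called lower. As background, C7 and Colec10 are known to be made largely by cells other than hepatocytes, so the list is not one of hepatocyte products alone. C6 and C7 were thus the pore genes with the lowest shares. C4a was not tested, because the annotation lists it as a transcribed pseudogene.

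Of 13 tested complement genes made mainly by other cells, 3 were called higher, 9 lower and 1 in neither direction. Cfd, which encodes factor D, had 65.2% ± 29.6 and Itgb2, an integrin chain of leukocytes, had 55.2% ± 13.8. C1qc, C3ar1, Cr2, Fcnb and Itgax, which share the lowest place, had 0% in every strain. Of 6 membrane regulators, which protect host cells from complement, 2 were called higher and 4 lower. Cd59a and Cd59b, which block the pore, had 77.5% ± 15.2 and 48.5% ± 8.52, whereas Cd55 and Cd55b had 2.19% ± 6.57 and 1.15% ± 3.44. The same shares of all genes, 45% higher and 45.4% lower, are the background of these counts.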

How the data were processed

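The segmentations of 9 strains were used as deposited. In them the authors give every 200-bp interval a state number, which is a category and not a count, signal or score. Per the submitters' processing notes, FastQC 0.11.5, MACS 1.4.2 and mm10 were used, with roles not given. The segmentation tool, the marks of each state and the depth are not given in the sources used here, so no counting error is stated. The 117 libraries, 13 per strain, were grouped by strain label.

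Gene spans came from the RefSeq table of GRCm38.p6, where all 9 members were found, and were padded by 2000 bp. Shares of bins were compared with the autosomes of the same strain by an exact permutation test, two-sided, that flips the signs of the 9 strain differences (512 patterns), for 20665 genes, with Benjamini-Hochberg adjustment and a threshold of 0.05. The strains are related by descent, and the p-values describe how consistent the differences were over the strains. Where all 9 differences share a sign, the p is the smallest possible, whatever their size or spread. Pair disagreement was averaged over 36 strain pairs and has no test. The code was tested on simulated data. Python 3.11.15, numpy 2.4.6, pandas 2.3.3 and matplotlib 3.10.9 were used.

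The members and all gene lists were chosen with earlier results of these data known. Named were all members, from each list of other complement genes the 2 highest and 2 lowest by mean share in states 1 to 4, with ties, and the 5 genes most like Hc. Alternatives changed padding, bin size, single-bin segments, state sets, comparator, matching and the strains used. A further file that joins all strains repeats the strain files and was not used.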

Additional observations from a re-analysis of the deposited data

Results flagged for a closer look

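Of 27 sets of 9 strain values, 3 held a strain far from the others by Dixon's test, where chance flags about 1 in 20 sets and 1.35 were expected. In C6, PWK/PhJ had 10.6% of its bins in states 1 to 4, with a gap of 0.837 of the range to the next strain. In C3, NZO/HlLtJ differed from the other 8 strains in 44.5% of the bins on average (gap 0.686). In Cfb, NOD/ShiLtJ had 96.2% of its bins in states 1 to 4, the lowest of the strains (gap 0.5). Cfb has only 52 bins, A/J had 98.1% and all other strains were tied at 100%. The chance rate assumes independent values without ties, so it does not hold for Cfb. In C6, 129S1/SvImJ, A/J, CAST/EiJ and NOD/ShiLtJ were tied at 0%, so it does not hold there either. The values of C3 are means over pairs that strains share, so they are not independent. The expected number of flags is therefore only a rough guide.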

How the results depend on the processing

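The number of members called higher was 7 or 8 in both tests under all alternatives run, 16 for states 1 to 4 and 15 for the share outside state 14, and the genes called over the whole table ranged from 7454 to 10362 and from 9762 to 11900. The median disagreement of the 9 genes was 19.9% with a match within 1 bin and 32.4% over marked bins only, against 26.5%, and the leave-one-out values ran from 25.5% to 27.2%. C9 outside state 14 turned from -4.09 to 6.97 percentage points with states 13 and 14 merged, a set in which only bins outside both states count. It was called lower without padding (-6.37) and against gene bins (-11.5), as was C6 against gene bins (-14.4) and with the states merged (-7.03). The cause was not tested. The disagreement of C6 was 5.76% with states 13 and 14 merged, against 23.1%. The mean of the 3 strains known to carry the null allele of Hc minus that of the others was followed in only 3 alternatives. It stayed negative, at -14.5 percentage points without padding, -11.1 without NZO/HlLtJ and -2.80 for states 1 to 3. The other alternatives were not run for it. In the main setting this difference was negative on the autosomes too, at -1.14 percentage points. No paired analysis was possible by mouse number, because each strain has 1 segmentation for all its mice; the test itself pairs each gene with the autosomes of its strain. The depth is unknown, and errors within a strain cannot be given.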
